A study of Mus musculus with 12 samples.

Results

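Otos, Coch, Otor, Pou3f4 and Tbx18, 5 genes listed as markers of the fibrocytes of the spiral ligament, were followed along the mouse cochlea. They were taken by name, as all non-control probes whose gene name on the array was 1 of the 5 symbols, which gave 23 exon probes of the 165865 used and 5 genes of 19505. The arrays were hybridized with RNA from 3 parts of the cochlea, its apical, middle and basal turn, of male C57BL/6 mice aged 6 weeks, with no treatment or genetic change, and there were 4 arrays for each turn. Each turn was dissected whole, so that spiral ligament, spiral prominence, stria vascularis, organ of Corti and spiral ganglion neurons were all present, and 25 ng of total RNA was labeled for each array. The notes speak of 4 mice and the sample labels carry numbers 1 to 4 within each turn, and nothing says which samples came from the same mouse, so that p-values measure the spread between these samples. All 4 arrays of a turn lay on 1 slide, and turn and slide cannot be told apart. Since each array measured a whole turn, fewer fibrocytes and less RNA per fibrocyte cannot be told apart either.

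The spiral ligament anchors the outer edge of the basilar membrane to the bony wall of the cochlea. Its fibrocytes take up potassium that has passed through the hair cells and hand it through gap junctions to the stria vascularis, which returns it to the endolymph. Otos and Coch encode secreted proteins, otospiralin and the matrix protein cochlin, that fibrocytes make in large amounts, and Coch is a gene of progressive hearing loss with vestibular impairment in humans. Otor encodes otoraplin, a small secreted protein of the melanoma inhibitory activity (MIA) family. Pou3f4 and Tbx18 encode transcription factors of the POU and T-box families that the mesenchyme around the otic vesicle needs to form the ligament, and loss of Pou3f4 causes X-linked deafness.

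Each value on the array is the brightness of probes of 60 bases laid in exons. The probes shown here carry the results described below, 1 for each gene and a pair for Tbx18, whose 2 probes gave the smallest and nearly the largest difference between the ends of the cochlea within that gene. Each is given with its position in the transcript and on the mouse genome build mm9, and the letters are those the array file lists, all in lower case because no part of a probe stands out.
Otos, position 525, chr1:94540914-94540973 (-): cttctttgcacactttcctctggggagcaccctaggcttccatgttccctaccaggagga
Coch, position 962, chr12:52702845-52702904 (+): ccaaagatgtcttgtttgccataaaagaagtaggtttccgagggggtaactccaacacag
Otor, position 265, chr2:142905664-142905723 (+): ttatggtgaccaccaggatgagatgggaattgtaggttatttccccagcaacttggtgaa
Pou3f4, position 974, chrX:108010778-108010837 (+): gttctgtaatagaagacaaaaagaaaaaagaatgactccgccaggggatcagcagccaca
Tbx18, position 1140, chr9:87619142-87619201 (-): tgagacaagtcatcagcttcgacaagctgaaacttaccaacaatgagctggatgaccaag
Tbx18, position 1473, chr9:87602602-87602661 (-): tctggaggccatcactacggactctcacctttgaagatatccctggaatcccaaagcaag

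All 8 genes listed as markers of spiral ligament fibrocytes (the 5 genes with Car3, Aqp1 and Slc12a2) were detected by a probe well above background on each of the 12 arrays. The 23 probes of the 5 genes were themselves well above background on every array and none was saturated. On the mm9 build the probes of Otos lay on chromosome 1 between 94540914 and 94542002, those of Coch on chromosome 12 between 52696419 and 52706546, those of Otor on chromosome 2 between 142904291 and 142907148, the single probe of Pou3f4 on chromosome X between 108010778 and 108010837, and those of Tbx18 on chromosome 9 between 87599514 and 87626075. Neighboring probes of a gene were in all cases farther apart on the genome than in the transcript, so that each pair was separated by at least 1 intron.

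Between the ends of the cochlea, 4 of the 5 genes were higher toward the base and 1, Otor, toward the apex. Otos showed the largest difference of the 5, followed by Otor, Coch, Pou3f4 and Tbx18. In Otos and Coch the signal rose at both steps along the cochlea. In Pou3f4 and Tbx18 a rise was found at the step from middle to base, and in Otor a fall at that same step, with no difference detected between apex and middle in these 3 genes.

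**Figure D1:**
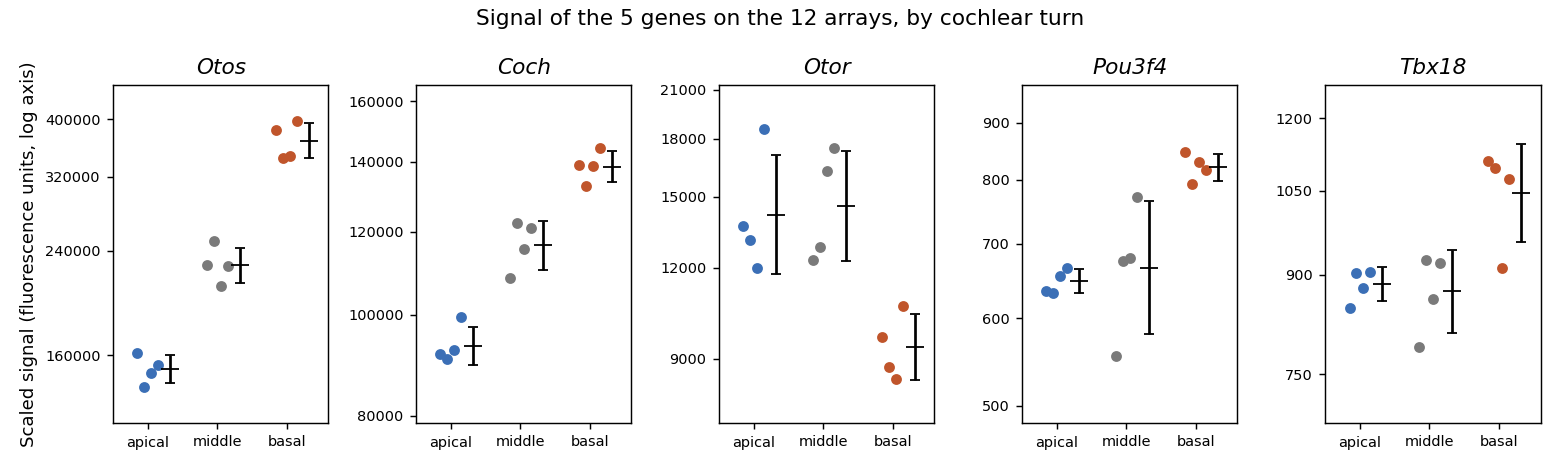
Scaled fluorescence signal (log axis, a scale of its own for each gene) of Otos, Coch, Otor, Pou3f4 and Tbx18 on each of the 12 arrays (colored points, 4 per turn), with the mean of the log2 signals and 1 SD in black. The 4 basal arrays lie above all apical arrays for Otos, Coch, Pou3f4 and Tbx18 and below them for Otor, where the basal arrays sit between 8458 and 10640 and the apical arrays between 11990 and 18550. Among all genes, 21.4% had basal arrays entirely above the apical ones and 16.9% entirely below.

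For all 19505 genes, limma's moderated contrasts over the 12 arrays called 39.2% different between apex and base at a Benjamini-Hochberg adjusted p under 0.05, 21.6% with the base higher and 17.6% with the apex higher. The corresponding share was 12% between apex and middle, with 7.61% higher in the middle turn, and 20.9% between middle and base, with 9.23% higher basally and 11.6% higher in the middle turn. Against these backgrounds, all 5 genes were called between apex and base, 2 of 5 between apex and middle, and all 5 between middle and base. The balance of calls depended on the scaling. After the arrays had been brought to a common 75th percentile, 10 spike-in control probes still averaged 0.42 log2 units more on apical than on basal arrays. The 10 ranged from 0.04 to 0.60, so that the average does not hold for each of them. Scaling to these probes moved the median difference of all genes from -0.04 to -0.45 and left 917 genes with more signal apically against 13393 with more basally, compared with 3436 and 4209. Scaling to the median moved it to -0.15, with 2270 and 6283 genes. Under scaling to the spike-in probes the differences of apex and base were -0.99 for Coch, -0.76 for Pou3f4 and -0.66 for Tbx18, compared with -0.57, -0.34 and -0.24 in the values given below, and quantile normalization gave -0.33 for Coch.

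Otos encodes otospiralin, whose loss causes deafness in mice. Its scaled signal was 161000, 141400, 149100 and 154100 on the 4 apical arrays. On the middle arrays it was 226700, 248900, 209200 and 226100, and on the basal arrays 383500, 343900, 346200 and 397400. The 3 turns did not overlap (13.5% of all genes had separate apical and middle arrays with the middle higher, and 11.6% separate middle and basal arrays with the base higher), and every array of a turn nearer the base was brighter than every array of a turn nearer the apex. The mean signal was 151000 ± 8300 (SD, n = 4) apically, 228000 ± 16000 in the middle turn and 368000 ± 27000 basally. The difference of the apex from the base was -1.28 log2 units (SE 0.071, 95% interval -1.43 to -1.12), which was 2.43-fold, with an adjusted p of 5.7e-07 in limma. The middle turn exceeded the apex 1.5-fold (adjusted p = 0.00099, limma) and the base exceeded the middle turn 1.61-fold (adjusted p = 0.00012, limma). The step from middle to base made up 54% of the whole log2 difference. Otos alone among the 5 genes reached 2-fold between any turns, and it fell short of it under quantile normalization (log2 difference -0.91). An F test with a 2-fold limit, the kind of threshold used in the methods of the study, was passed by 1.12% of all genes in this direction.

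Coch encodes cochlin, a secreted protein with an LCCL domain and von Willebrand factor A domains. The apical arrays gave 91730, 90590, 92540 and 99490. The middle arrays gave 108500, 122300, 115500 and 120900, and the basal arrays 139000, 132700, 138800 and 144200. As with Otos, the turns were in strict order with no overlap. Separate apical and middle arrays with the middle higher were found for 13.5% of all genes. Separate middle and basal arrays with the base higher were found for 11.6%. The means were 93600 ± 4000 (SD, n = 4), 117000 ± 6300 and 139000 ± 4700 from apex to base. The apex was lower than the base by a log2 difference of -0.57 (SE 0.054, 95% interval -0.69 to -0.45), or 1.48-fold, with an adjusted p of 1.9e-05 in limma. The step from apex to middle was 1.25-fold (adjusted p = 0.0055, limma). The step from middle to base was 1.19-fold (adjusted p = 0.0091, limma), and it fell just short of the threshold under quantile normalization (log2 difference -0.14, adjusted p = 0.055). A call at all 3 comparisons with the signal rising toward the base, as in Otos and Coch, was made for 2.17% of all genes.

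Otor encodes otoraplin and ran the other way. Its signal was 13670, 13070, 11990 and 18550 on the apical arrays. It was 12300, 12820, 16240 and 17500 on the middle arrays and 9646, 8766, 8458 and 10640 on the basal arrays. All 4 basal arrays lay below all others (12.5% of all genes had separate middle and basal arrays with the middle higher), while the apical and middle arrays overlapped over nearly their whole range. In each turn the sample numbered 4 was the brightest. The means were 14300 ± 2900 (SD, n = 4), 14700 ± 2500 and 9380 ± 980. The apex exceeded the base by 0.60 log2 units (SE 0.15, 95% interval 0.26 to 0.93), or 1.51-fold, with an adjusted p of 0.0087 in limma. The middle turn exceeded the base 1.56-fold (adjusted p = 0.013, limma), and the difference of apex and middle was -0.04 (95% interval -0.38 to 0.29, adjusted p = 0.88, limma). Under scaling to the spike-in probes the difference of apex and base was 0.18 (adjusted p = 0.37, limma) and that of middle and base 0.38 (adjusted p = 0.10, limma). Both calls were lost. The direction was kept with the mean of the spike-in probes. Singly these probes differed between apex and base by 0.04 to 0.60. Most of them lay at 0.54 to 0.60, near the 0.60 of Otor itself. A base called lower than both other turns, with apex and middle not called different, was found for 7.62% of all genes.

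Pou3f4 encodes a POU class 3 transcription factor and was measured by 1 probe. Its signal was 634.1, 631.5, 655.3 and 665.9 on the apical arrays. It was 555.1, 675.6, 679.7 and 771 on the middle arrays and 846.6, 793, 828.9 and 815.6 on the basal arrays. The basal arrays lay above all others, and the middle arrays spread on both sides of the apical ones. Among all genes, 21.4% had basal arrays entirely above the apical ones, and 11.6% had basal arrays entirely above the middle ones. The means were 647 ± 17 (SD, n = 4), 670 ± 89 and 821 ± 23. The difference of apex and base was -0.34 (SE 0.083, 95% interval -0.53 to -0.16), or 1.27-fold, with an adjusted p of 0.0064 in limma. That of apex and middle was -0.04 (95% interval -0.22 to 0.14, adjusted p = 0.76, limma). The base exceeded the middle turn 1.23-fold (adjusted p = 0.024, limma), a call that was lost without basal sample 1 (adjusted p = 0.058, difference -0.29), without basal sample 4 (adjusted p = 0.053, difference -0.30) and in a fit of the middle and basal arrays alone (adjusted p = 0.068, difference -0.30).

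Tbx18 encodes a T-box transcription factor and showed the smallest difference of the 5 genes. Its signal was 846.4, 903, 878 and 905.3 on the apical arrays. It was 789, 925.8, 861.8 and 919.7 on the middle arrays and 1109, 1096, 912.2 and 1074 on the basal arrays. Basal sample 3 stood apart from the other basal arrays, just above the highest apical array and below the highest middle array. The means were 883 ± 27 (SD, n = 4), 874 ± 64 and 1050 ± 92. The difference of apex and base was -0.24 (SE 0.074, 95% interval -0.40 to -0.08), or 1.18-fold, with an adjusted p of 0.021 in limma. The adjusted p was 0.059 without apical sample 1 (difference -0.22) and 0.06, 0.062 and 0.054 without basal samples 1, 2 and 4, where the differences were -0.21, -0.22 and -0.23. The base exceeded the middle turn 1.2-fold (adjusted p = 0.028, limma), with adjusted p values of 0.081 without middle sample 1 (difference -0.21), 0.072, 0.083 and 0.069 without basal samples 1, 2 and 4 (differences -0.23, -0.24 and -0.25) and 0.072 with the middle and basal arrays alone (-0.26). The difference of apex and middle was 0.02 (95% interval -0.14 to 0.18, adjusted p = 0.90, limma). A base called higher than both other turns, with apex and middle not called different, as in Pou3f4 and Tbx18, was found for 6.29% of all genes.

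**Figure D2:**
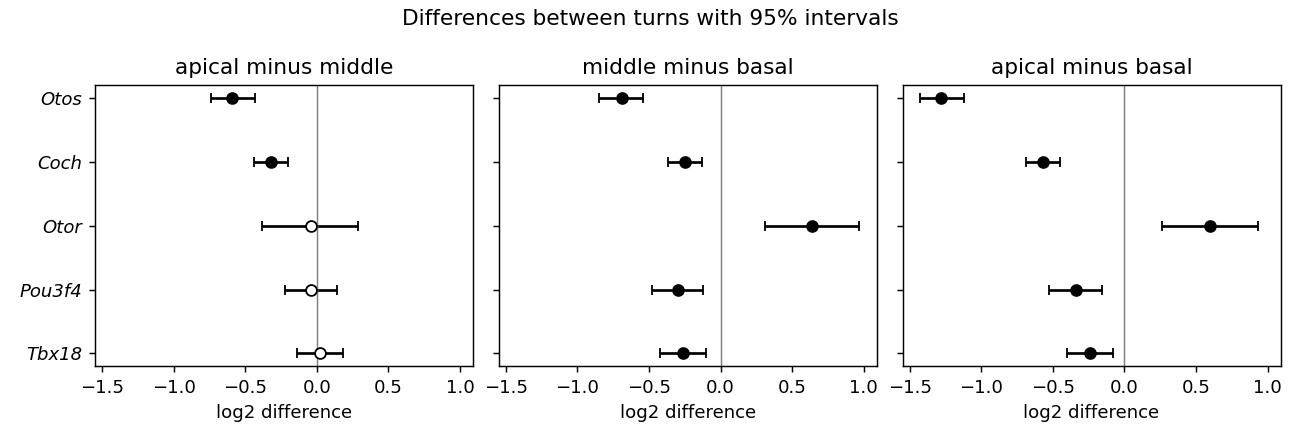
Difference of the log2 signals between turns for the 5 genes, with 95% intervals from limma over 12 arrays. Filled points passed an adjusted p under 0.05 and open points did not. The apical minus middle panel holds filled points for Otos (-0.59) and Coch (-0.32) only, and Otor is the single gene to the right of 0 in the other panels.

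Over the 3 turns, limma's moderated F test gave adjusted p values of 2.1e-06 for Otos, 6.9e-05 for Coch, 0.0096 for Otor, 0.012 for Pou3f4 and 0.024 for Tbx18, and 38.7% of all genes passed this test. Scaling to the spike-in probes took Otor above the threshold (adjusted p = 0.17). Leaving out basal sample 1, 2 or 4 took Tbx18 above it, with adjusted p values of 0.078, 0.081 and 0.068. Genes whose apical and basal arrays did not overlap made up 21.4% of all genes with the base higher, as in 4 of the 5, and 16.9% with the apex higher, as in Otor.

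Because the 5 genes were measured on the same arrays, the ratio of 2 genes on an array does not depend on how that array was scaled. The ratios of the 10 pairs were compared between the apical and basal arrays after the values of the single genes had been seen, and they are given as a description. An exact permutation test run on them cannot give a p under 0.0286 with 4 arrays per turn, and its outcome is not used. The ratio of Otos to Otor changed most, and was 3.67-fold higher in the base (log2 difference -1.88). The ratio of Otos to Coch was 1.64-fold higher in the base (log2 difference -0.71), that of Otos to Pou3f4 1.91-fold (-0.94) and that of Otos to Tbx18 2.05-fold (-1.04). The ratio of Coch to Otor was 2.24-fold higher in the base (-1.16). Otor gained on the transcription factors toward the apex, by 1.92-fold against Pou3f4 and by 1.79-fold against Tbx18. Coch rose beyond the transcription factors by less, 1.17-fold against Pou3f4 (-0.22) and 1.25-fold against Tbx18 (-0.32). The ratio of Pou3f4 to Tbx18 differed by -0.10. Quantile normalization, which is not a single factor per array, moved several of these ratios. It brought the log2 difference of Coch to Pou3f4 to 0, of Coch to Tbx18 to -0.14, of Otos to Pou3f4 to -0.58, of Otos to Tbx18 to -0.72, of Otos to Coch to -0.58 and of Otor to Pou3f4 to 1.18.

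The exon probes showed how far each gene moved as a whole. Between apex and base, 20 of the 23 probes were called in the direction of their gene by limma at the probe level, where 16.4% of all 165865 probes were called with the base higher and 18% with the apex higher. These were 2 of 2 probes of Otos, 8 of 8 of Coch, 4 of 4 of Otor, the 1 probe of Pou3f4 and 5 of 8 of Tbx18, and the other 3 probes of Tbx18 had the same sign as the rest. Between apex and middle 9 probes were called, all of Otos and Coch (2 and 7), where 2.86% of all probes were called higher in the middle turn. Between middle and base 18 were called, against backgrounds of 6.02% with the base higher and 7.76% with the middle turn higher. Under quantile normalization these counts were 5 and 10. Without apical sample 2 the count was 3 between apex and middle, and without middle sample 1 or basal sample 1, 2 or 4 it was 9 to 11 between middle and base.

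**Figure D3:**
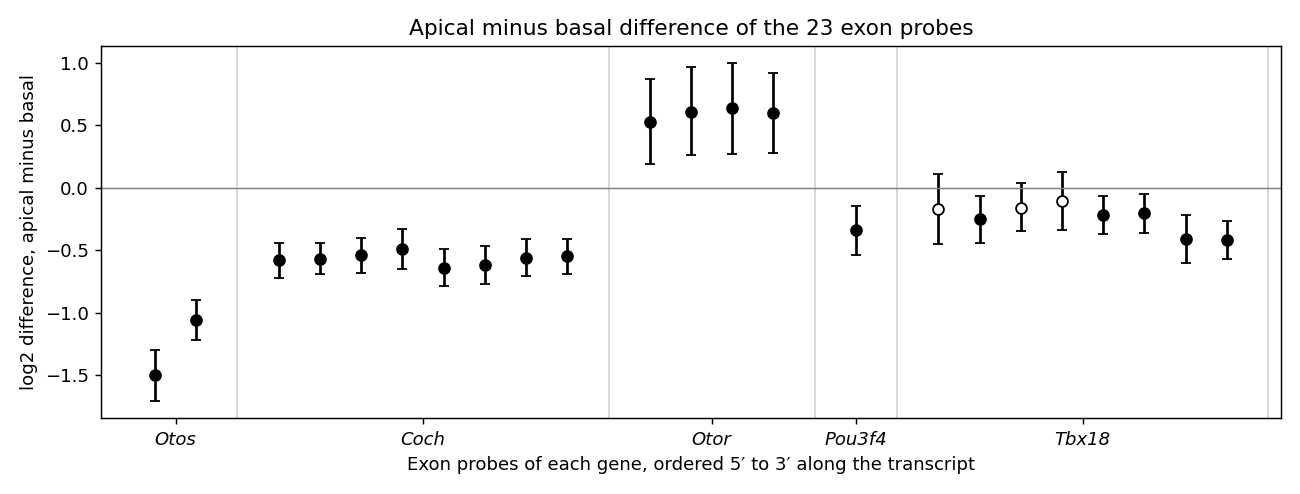
Apical minus basal difference of the log2 signal of each of the 23 exon probes, in 5′ to 3′ order within each gene, with 95% intervals. Filled points passed an adjusted p under 0.05. The 8 probes of Coch lie between -0.64 and -0.49 and the 4 of Otor between 0.53 and 0.64, while those of Otos lie apart at -1.50 and -1.06 and those of Tbx18 range from -0.42 to -0.11.

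The 8 probes of Coch, spread over its transcript from position 468 to 2409, differed between apex and base by -0.64 to -0.49, and the 4 of Otor by 0.53 to 0.64. None of these 12 probes was called different from the other probes of its gene in any comparison, where 10.4% of 159900 probes were called between the ends of the cochlea, 0.24% at the step from apex to middle and 0.949% at the next step. The probes of Otos differed from each other. The one at position 285 gave -1.50 (95% interval -1.71 to -1.30) and the one at position 525, printed above, -1.06 (95% interval -1.22 to -0.90). The second was the brighter spot, at 56.7% to 64.8% of the saturation value on the basal arrays, where the first was at 26% to 38.7%. Both were below saturation on all arrays, and the part of brightness in the gap was not tested. In Tbx18 the 2 probes nearest the 3′ end, at positions 1473 and 2740, differed most between apex and base, by -0.41 and -0.42. The probe at position 2740 was lower in the apex than the gene's other probes by a further -0.20 (adjusted p = 0.019, limma) and that at position 1473 by -0.19 (adjusted p = 0.066, limma). The probe at position 1140, printed above beside the one at 1473, gave -0.11 (95% interval -0.34 to 0.13, adjusted p = 0.49, limma).

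The genes were also set beside windows of 250 bases before their transcription start in the RefSeq table of the GRCm38.p6 build, which held all 5. Those of Otos, Coch and Otor, the secreted products, are shown because Otos and Coch rose toward the base and Otor toward the apex. Capitals mark matches on either strand to the letters TATAAA of the TATA box, CCAAT of the box named after it, GGGCGG of the GC box, ATGCAAAT of the octamer bound by POU factors or AGGTGT of the site bound by T-box factors, and none of these matches overlapped.
Otos, chr1:92648842-92649091 (-): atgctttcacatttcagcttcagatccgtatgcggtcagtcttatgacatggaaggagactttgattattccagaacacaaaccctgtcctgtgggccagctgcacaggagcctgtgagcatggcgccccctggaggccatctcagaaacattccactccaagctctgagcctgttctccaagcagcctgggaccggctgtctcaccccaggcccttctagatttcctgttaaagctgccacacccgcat
Coch, chr12:51593091-51593340 (+): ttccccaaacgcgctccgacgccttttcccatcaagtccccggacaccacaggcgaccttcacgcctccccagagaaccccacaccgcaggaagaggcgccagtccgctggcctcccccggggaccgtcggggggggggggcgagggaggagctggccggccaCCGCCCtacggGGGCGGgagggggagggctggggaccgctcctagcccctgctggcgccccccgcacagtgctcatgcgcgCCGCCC
Otor, chr2:143078143-143078392 (+): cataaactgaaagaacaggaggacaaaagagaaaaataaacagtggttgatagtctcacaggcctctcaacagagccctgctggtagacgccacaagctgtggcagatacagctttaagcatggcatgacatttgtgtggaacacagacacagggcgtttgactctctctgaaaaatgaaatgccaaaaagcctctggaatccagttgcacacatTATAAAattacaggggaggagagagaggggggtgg
The Otor window held TATAAA 35 bases before the start, a match present in 13% of the 27025 windows of this length. The Coch window, with a GC content of 74.8% against 54% for Otos and 46% for Otor, held GGGCGG or its complement at 3 places, and 32.9% of all windows held at least 1. The Otos window held none of the 5. CCAAT, found in 34.5% of all windows, occurred at 3 places before Pou3f4 and at 1 before Tbx18. None of the 5 windows held ATGCAAAT, which 1.61% of all windows hold, or AGGTGT, which 12% hold. A match of letters is a description and was not tied to any measurement.

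Genes for the handling of potassium, water and acid by fibrocytes and the adjoining stria were also examined. The counts are over the 10 genes named, which are not the whole list, and say nothing of the list as a whole. Of these 10, 9 were higher basally than apically and 1 was higher apically, where 21.6% and 17.6% of all genes were called in these directions. Car2, a carbonic anhydrase, showed the largest difference, -2.13 (SE 0.10, 4.36-fold, adjusted p = 2e-07, limma). It was followed by the water channel gene Aqp1 (-0.99) and the membrane transporter gene Slc4a11 (-0.92). The gap junction genes Gjb6 and Gjb2 differed by -0.77 and -0.52. Slc12a2, the sodium, potassium and chloride cotransporter gene, differed by -0.52 and Atp1b1, a beta subunit of the sodium and potassium pump, by -0.41. The other genes higher in the base were the potassium channel gene Kcnj16 (-0.67) and the carbonic anhydrase gene Car3 (-0.42, not called under quantile normalization). Slc4a7, a sodium bicarbonate cotransporter gene, was higher in the apex by 0.31, and at -0.10 and not called under scaling to the spike-in probes.

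In the other comparisons of these genes, 6 of the 10 genes exceeded the apex in the middle turn and none was called below it. The share of all genes called with the middle turn above the apex was 7.61%. From the middle turn to the base 7 of the 10 rose and 1 fell, where 9.23% of all genes were called rising and 11.6% falling. The gene that fell was Slc4a7 (0.16), a call at the threshold (rounded adjusted p = 0.05, limma). Car2, Aqp1, Gjb6 and Slc4a11, like Otos, rose at both steps. The largest rises were those of Car2, 1.92-fold from apex to middle and 2.27-fold from middle to base. Slc12a2 and Atp1b1 differed from apex to middle (-0.39 and -0.31) and were not called from middle to base (-0.13 and -0.10). Car3 (-0.50), Kcnj16 (-0.39) and Gjb2 (-0.32), like Pou3f4 and Tbx18, were called from middle to base and not from apex to middle. At that first step Car3 was at 0.07, Kcnj16 at -0.29 and Gjb2 at -0.20.

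**Figure D4:**
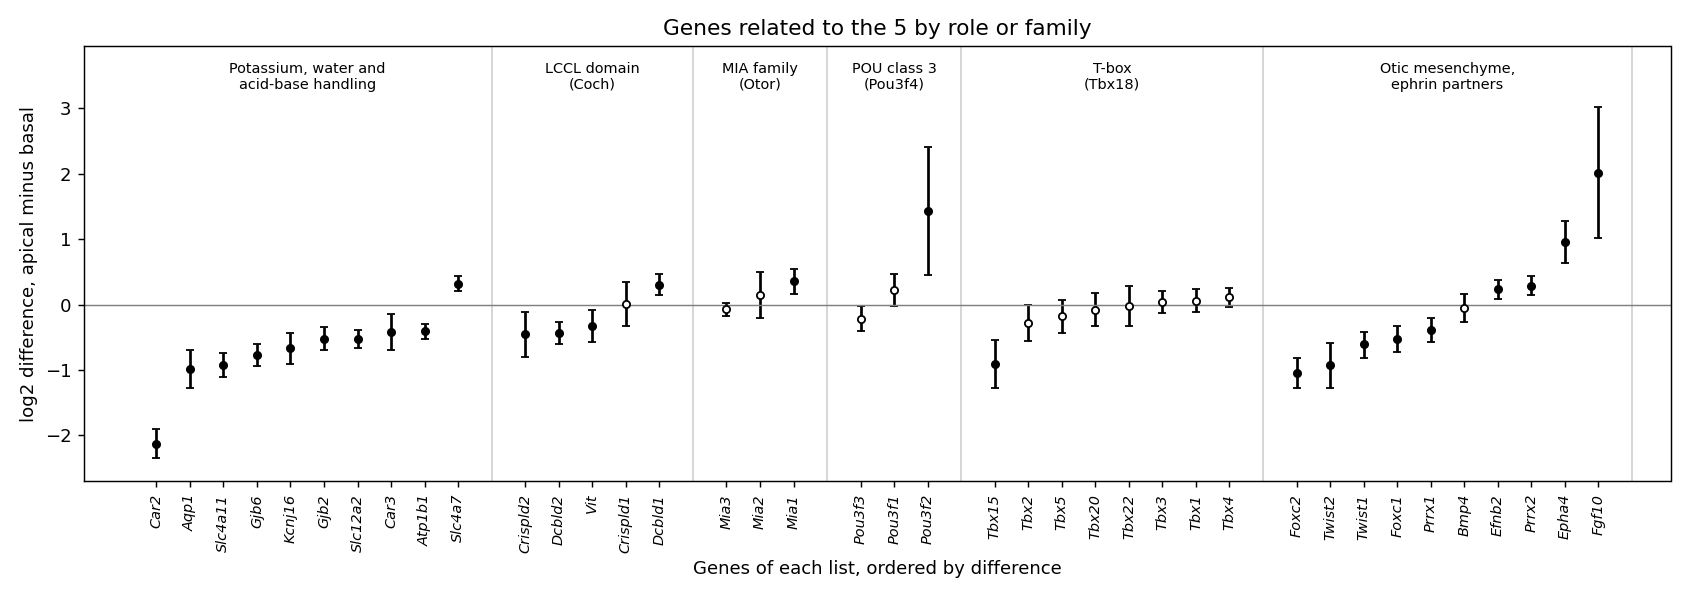
Apical minus basal difference of the log2 signal, with 95% intervals, for genes related to the 5 by role or family. Filled points passed an adjusted p under 0.05. Of the 10 genes for potassium, water and acid handling, 9 lie below 0 and are filled, and the relatives of the 5 genes show no shared direction. Among all genes 21.6% were called higher in the base and 17.6% higher in the apex.

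The relatives of each gene by family did not share one direction. Their counts stand beside 21.6% of all genes called higher in the base and 17.6% called higher in the apex. Of 5 genes with an LCCL domain like that of Coch, 3 were higher in the base, Crispld2 (-0.45), Dcbld2 (-0.44) and Vit (-0.33). Dcbld1 was higher in the apex (0.30, and -0.12 and not called under scaling to the spike-in probes), and Crispld1 was at 0.01. The calls of Crispld2 and Vit were near the threshold, at adjusted p values of 0.04 and 0.035 in limma, and did not hold when some of the single arrays were left out. Crispld2 was at -0.17 with the normexp background correction (adjusted p = 0.067), at -0.17 with the median of its probes (adjusted p = 0.62), at -0.26 with 16 added to each signal and at -0.21 with only probes well above background. Vit was at -0.31 with the median of its probes (adjusted p = 0.08). Of 3 relatives of Otor, Mia1 was 1.28-fold higher apically than basally (0.36, and -0.06 and not called under scaling to the spike-in probes). Unlike Otor, Mia1 was lowest in the middle turn, where the apex exceeded it 1.85-fold. Mia3 was at -0.07, and Mia2 was not well above background on any array.

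Of 3 genes of POU class 3, Pou3f2 was higher in the apex (1.43, SE 0.45, adjusted p = 0.025, limma), with overlapping arrays, and the call was lost without apical sample 1 (adjusted p = 0.069) and without basal sample 4 (adjusted p = 0.052). Pou3f1 and Pou3f3 were at 0.22 and -0.22 and were not called. Of 8 T-box genes only Tbx15 was called between apex and base, lower in the apex by -0.91 (adjusted p = 0.0014, limma), at a dim signal well above background on 10 of 12 arrays. Of 10 genes listed for factors and signals of the otic mesenchyme, an ephrin and an ephrin receptor among them, 5 were higher basally and 4 apically. Which cells expressed these genes was not tested. Over all genes the shares called were 21.6% with the base higher and 17.6% with the apex higher. The transcription factor genes Foxc2 (-1.04), Twist2 (-0.93), Twist1 (-0.61), Foxc1 (-0.53) and Prrx1 (-0.39) were higher in the base. The growth factor gene Fgf10 (2.01), the ephrin receptor gene Epha4 (0.95), Prrx2 (0.29) and the ephrin gene Efnb2 (0.23) were higher in the apex. Under scaling to the spike-in probes the last 2 were at -0.13 and -0.19 and not called. Bmp4 was at -0.06. Calls among these relatives moved with the scaling. Under scaling to the spike-in probes all 8 T-box genes were called lower in the apex, and so were Mia3 (-0.49), Pou3f3 (-0.63) and Bmp4 (-0.48). Under scaling to the median Mia1, Prrx2 and Efnb2 kept their direction and lost their calls.

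Markers of other cells in a turn also differed between apex and base, and their part in the results above was not tested. Their counts are to be read against the shares of all genes called, 21.6% higher in the base and 17.6% higher in the apex. All 7 markers of spiral ganglion neurons, all 6 of Schwann cells and 7 of 8 of hair cells were higher in the apex. Their summed signals ran from 25900 to 33800, 13000 to 14700 and 24800 to 28700 on the apical arrays and from 4720 to 21200, 6490 to 12500 and 6960 to 15300 on the basal arrays. Toward the base, 5 of 6 markers of strial intermediate cells (summed signal 37000 to 43200 in the apex, 57200 to 77600 in the base), 3 of 5 of strial marginal cells (3180 to 3770, 3370 to 4030) and all 5 of macrophages (1110 to 1460, 1560 to 1930) were higher. The marginal cell sums of the apex and the base overlapped, and Lrp2, the brightest gene of that list, was not called (0.13). Among 8 markers of general connective tissue, 4 were higher apically and 2 basally (20400 to 24000, 29800 to 40200), and among 8 of bone 1 was higher in the base (3080 to 16600, 9460 to 11200). Dcn (-1.42), the brightest of the connective tissue genes, contributed most to the sum of that list. Blood and endothelium had 1 of 6 markers higher on each side (22100 to 61000, 29300 to 76300), the vestibular list 1 of 3 higher in the apex (185 to 242, 91.6 to 126), and middle ear and muscle 2 of 5 higher in the base (461 to 482, 600 to 803). The gene called in the vestibular list was Otog (1.28). Oc90 was at -0.07 and not called, and Otol1 was well above background on only 4 arrays. Every gene of these lists was well above background on at least 1 array. The 8 markers of spiral ligament fibrocytes are the 5 genes themselves with Car3, Aqp1 and Slc12a2, all described above, so that they give no further readout. Of these, 7 were higher basally and 1, Otor, apically. Their summed signals were 290000 to 321000, 389000 to 435000 and 549000 to 612000 from apex to base, a sum to which Otos and Coch contributed most.

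For each of the 5 genes, the 3 genes with the most similar pattern were taken by the smallest root mean square difference of centered log2 signals over the 12 arrays, among 16049 genes with a probe well above background throughout. These values are descriptions, and the points share arrays and slides. Nearest to Otos were Corin (0.10), Rexo2 (0.12) and Slain1 (0.12), where the spread of Otos itself about its mean was 0.53. Nearest to Coch were Gpm6b (0.051), 2900073G15Rik (0.051) and Rab9 (0.052), against a spread of 0.24. For Otor they were 2210404O07Rik (0.13), Fbln5 (0.16) and B4galnt3 (0.17), against a spread of 0.35. The nearest to Pou3f4 were 2310033P09Rik (0.063), Dennd3 (0.064) and Mcl1 (0.066), and to Tbx18 Cobll1 (0.04), Esyt2 (0.043) and Slc39a1 (0.049), against spreads of 0.18 and 0.15. None of the 5 genes was among the 3 nearest of another.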

How the data were processed

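Gene expression was measured on 12 single-color Agilent mouse exon arrays, 4 for each cochlear turn. The deposited files hold fluorescence intensities that the authors extracted from scanned images with Agilent Feature Extraction 10.7.3.1, with the background subtracted and without normalization between arrays, and the deposited matrix repeats these values. Probe positions are on mm9 per the file headers. With R 4.3.3 and its package data.table (version 1.17.8), 7914 control spots and 622 spots that the software marked as uneven or as deviating were left out, which removed 119 of 165984 probes. The arrays were brought to a common 75th percentile (534 to 721.6 before), as the study's methods state, and repeated spots and then the probes of a gene name were averaged on the log2 scale, with no pseudocount and no filter on dim probes. On each array 77.4% to 81.4% of spots lay well above background, and 0 were saturated. The median SD of a gene within a turn was 0.106 to 0.126. The number of arrays limits the precision.

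Turns were compared with limma 3.58.1 (lmFit and eBayes) over 12 arrays, with Benjamini-Hochberg adjustment over all genes or all probes. Single probes were also compared with the mean of their gene's other probes, for genes with 3 or more probes. The scripts were tested on simulated data. The 5 genes, the lists of related genes and cell type markers and the tests were chosen with earlier results of these data known. All 5 genes are described, list genes called between apex and base are named first, and the 3 most similar genes are named for each. Otogl and the symbol Mia had no entry on the array, and a few genes of the list for potassium, water and acid handling are not reported here and were left out of its counts. Alternatives were other normalizations (quantile, median, spike-in probes), normexp background correction (offset 50), other probe filters and averages, 16 added to each signal, other designs and thresholds, and leaving out each array.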

Additional observations from a re-analysis of the deposited data

Results flagged for a closer look

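Among the 5 genes and the related genes called between apex and base, 93 groups of 4 arrays were examined for a single array lying far from the other 3, and 6 had a gap above the 95% critical value of Dixon's test. Chance flags about 1 in 20 groups. Of the 5 genes only Tbx18 was among them. Its signal on basal sample 3 was 912 where the other basal arrays lay between 1070 and 1110, and this gap made up a share of 0.839 of the whole range. In the same turn, Gjb2 was also low on basal sample 3, at 123000 against 146000 to 149000 (gap share 0.872). On middle sample 1, Pou3f2 was high at 178 against 109 to 114 (0.913), Fgf10 at 760 against 364 to 397 (0.881) and Efnb2 at 253 against 219 to 223 (0.871). Prrx2 was low on apical sample 3, at 387 against 449 to 458 (0.882).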

How the results depend on the processing

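The call of Otos and Coch between apex and base and between apex and middle, and that of Pou3f4 between apex and base, held in all 24 alternatives that use the same threshold. With the F test and a 2-fold limit, only Otos between apex and base passed, and the differences of Otos (-0.59 and -0.69 for the single steps), Coch (-0.57, -0.32, -0.25), Otor (0.60, 0.64), Pou3f4 (-0.34, -0.30) and Tbx18 (-0.24, -0.26) did not. Counts of genes with that limit were 638 with the apex and 218 with the base higher, 58 with the apex and 27 with the middle turn higher, and 430 with the middle turn and 89 with the base higher. Quantile normalization lost Coch between middle and base (-0.14) and gave 5 and 10 called probes of the 5 genes. Scaling to the spike-in probes lost Otor (0.18 and 0.38, and 0.17 as the adjusted p of the F test). It also lost the calls of Slc4a7 (-0.10), Mia1 (-0.06), Dcbld1 (-0.12), Prrx2 (-0.13) and Efnb2 (-0.19). These changed sign and were not called in the new direction (adjusted p from 0.056 to 0.59, limma). This scaling gave 917 and 13393, 263 and 5895, and 805 and 6954 genes for the same pairs of turns. Scaling to the median gave 2270 genes falling from apex to base, 2881 rising from apex to middle and 2859 rising from middle to base. The normexp correction gave 541 genes falling from apex to middle, and the median of probe values 942 rising. With the arrays of 2 turns alone, Pou3f4 (-0.30) and Tbx18 (-0.26) between middle and base were lost. Quantile normalization also reduced Coch between apex and base (-0.33) and Slc12a2 (-0.27), Gjb2 (-0.29), Kcnj16 (-0.40), Foxc1 (-0.27), Slc4a7 (0.15) and Atp1b1 (-0.14), raised Mia1 (0.58), and lost the calls of Car3 (-0.18), Dcbld1 (0.17) and Efnb2 (0.14). The normexp correction reduced Pou3f2 (0.57), Fgf10 (1.29), Twist2 (-0.61), Tbx15 (-0.41) and Slc4a7 (0.16), all still called, and Dcbld1 (0.13), no longer called. The value table gave no other values, since all 2170560 equalled the processed signals. An unmoderated F test put 7344 genes under the threshold where the moderated test put 7543.

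When single arrays were left out, Tbx18 ran from -0.31 to -0.21 between apex and base and from -0.33 to -0.21 between middle and base, and Pou3f4 from -0.37 to -0.21 between middle and base. The adjusted p of Tbx18 in the F test ran from 0.004 to 0.081. Counts ran from 431 to 955 genes falling and 534 to 2581 rising from apex to middle, and from 1489 to 3167 falling and 1132 to 1969 rising from middle to base. The probes of the 5 genes called numbered 3 to 9 between apex and middle and 9 to 17 between middle and base.

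With the sample number as a replicate block, no call of the 5 genes changed (Otor 0.60 between apex and base, adjusted p = 0.0025 in limma), and 2260 genes rose from apex to middle, compared with 1484. Samples of the same number correlated at -0.04 to 0.23 over all genes after the turn means were removed, with a mean of 0.09 against -0.03 for other pairs, and 8 of 12 arrays correlated best with an array of their own number, a hint of pairing from the data. Only 6 of 12 pairs were over 0.1, where all were required, so the numbers were not taken as pairs. The causes of these changes were not tested. Faint genes such as Tbx15 and Pou3f2 are limited by their signal over background.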
